A study of Mus musculus with 25 samples.

Results

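Libraries of both days after white matter stroke were pooled into 1 injured group and set against control. All 25 libraries of the series enter: 15 injured, of which 8 were labelled Day 5 and 7 Day 15, against 10 labelled Control. Each came from mouse brain by laser capture of cells that the labels name oligodendrocyte precursor cells (OPC), the dividing glia that give rise to the oligodendrocytes that make myelin. The 3 groups share the species, the cell label and the preparation, and differ by condition (white matter stroke or control) and by day. Strain, sex, age of the mice, the way the stroke was made and the operation given to controls are unstated in the labels, as is the mouse behind each library. Nothing says that libraries of 1 group came from separate mice, so the p-values measure the spread between libraries, which may be technical in part.

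Stroke in white matter damages axons together with the myelin around them. Myelin is rich in cholesterol and long-chain fatty acids, and oligodendrocytes need high rates of lipid synthesis to build it. Microglia, the resident phagocytes of the brain, and macrophages that enter from blood take up myelin debris, break it down in lysosomes, store the lipid as droplets and pass cholesterol on to apolipoproteins. OPC divide and migrate towards such lesions, and some mature there into oligodendrocytes. Transcripts of all these cells can reach a captured spot of tissue.

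Per library, between 1306 and 6592 genes reached an RPKM (reads scaled by transcript length and by library total) of 1. The injured libraries had more such genes (mean 3640, SD 1481, n = 15) than the controls (2467, SD 889.9, n = 10), a difference of 1173 genes (two-sided permutation test, p = 0.0294, adjusted over 3 library properties 0.0294). Summed RPKM without the ribosomal RNA gene Rn45s also differed, with means of 35561 and 19753 (permutation p = 0.0162, adjusted 0.0294). Each library was divided by a factor taken from its 75th percentile, and "scaled RPKM" below means the value after that step. The factor itself had a mean of 1.43 in injured and 0.81 in control libraries (permutation p = 0.0226, adjusted 0.0294). The largest shares of Rn45s in a library's RPKM were 73.4% (Control replicate 5) and 68% (Day 5 replicate 10). The number of reads behind a value is unknown, because the deposited values do not step in whole reads.

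The labelled cell type was checked against its markers. In controls the median scaled RPKM was 0.958 for Pdgfra, the growth factor receptor that defines OPC, 0.00762 for Cspg4, the NG2 proteoglycan, 0.946 for Olig2 and 2.50 for Sox10. Sox10 was thus the only one of these 4 with a median above 1, the RPKM used here for a detected gene, and Cspg4 was far under it, whereas the compact-myelin gene Mbp had a median of 334 on the same per-length scale. Of 22 OPC markers in the table, 8 reached a median of 1 in controls, 7 at Day 5 and 6 at Day 15. The libraries are called by their label below, but the myelin transcripts exceeded the OPC markers in them.

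Of 4319 genes tested, 15 were higher (0.347%) and 9 lower (0.208%) in injured than in control libraries at an adjusted p under 0.05 (limma on log2 of scaled RPKM + 1, Benjamini-Hochberg over all 4319). A change was counted as shared by both days where the gene passed in the pooled comparison and each day alone had the same sign with an unadjusted p under 0.05. All 24 met this rule, with 15 shared rises and 9 shared falls. Each day's test reuses libraries of the pooled comparison and the same controls, so a pooled call makes the rule easy to meet. Meeting it is therefore no separate support. At an adjusted p under 0.05 only Camk2n1 passed at both days. The rises given here were Lyz2, Spp1, Gpnmb, Plin2, Apoe, Sirpa, Man2b1, Apobec1, Cd180, Ucp2, Tyrobp, Tnfrsf1b, Nceh1 and Abcd2. The falls were Rapgef4, Kif5a, Camk2n1, Cldn11, Gpr37, Prr18, Scd1, Plekhh1 and Sqle. At an unadjusted p under 0.05, 341 genes were higher (7.90%) and 221 lower (5.12%), and a further 32 higher (0.741%) and 21 lower genes (0.486%) had an adjusted p between 0.05 and 0.10. The median difference over all genes tested was 0.07 on the log2 scale. In these bulk captures, fewer or more cells of a type and less or more RNA per cell cannot be told apart.

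**Figure D1:**
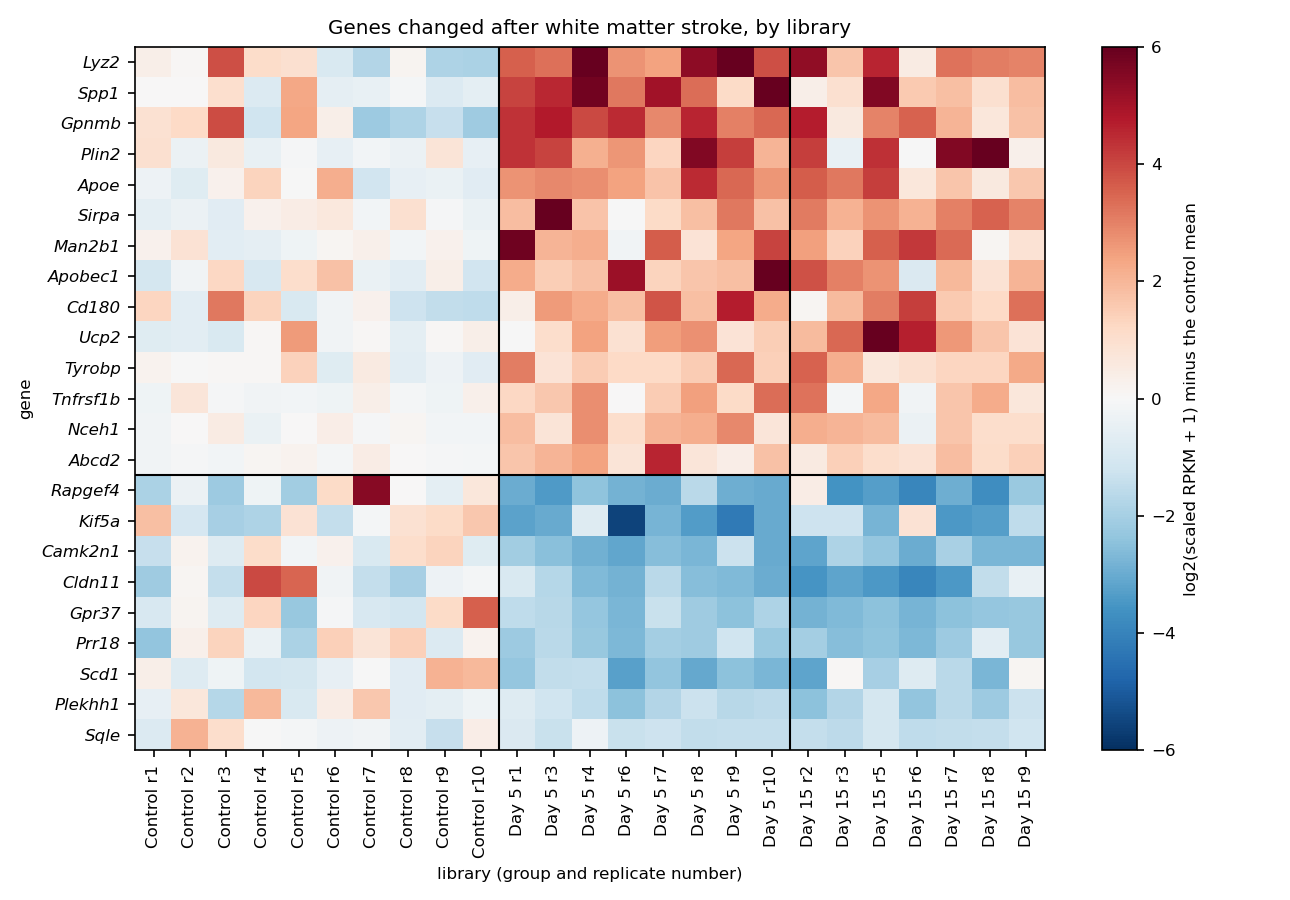
Heat map of 14 of the 15 risen genes and the 9 fallen genes (vertical axis) in each of the 25 libraries (horizontal axis), as log2(scaled RPKM + 1) minus the control mean, with red higher and blue lower. The black lines separate control, Day 5 and Day 15 libraries, and rises from falls; in every injured library at least 12 of the 15 risen genes lay above the control median and at least 8 of the 9 fallen genes below it.

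The split between rises and falls depended on the scaling. With the RPKM as deposited, 36 genes were higher and 1 lower, and the median of all genes was 0.43. With quantile normalization the counts were 16 and 15, and with columns brought to the same sum without Rn45s they were 14 and 11. All 15 rises passed under the deposited, unscaled values, and of the 9 falls only Camk2n1 did, at -2.0 (adjusted p = 0.0166). Scaling by a 75th percentile over all genes above 0 ended 20 of the 24 calls, with Camk2n1, Gpr37, Lyz2 and Spp1 still past the threshold. Each of the 24 differences had the same sign in every fit that tested the gene. When each library's count of detected genes was added to the fit, 4 of the 24 kept their call, among them Lyz2, Camk2n1 and Plekhh1.

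**Figure D2:**
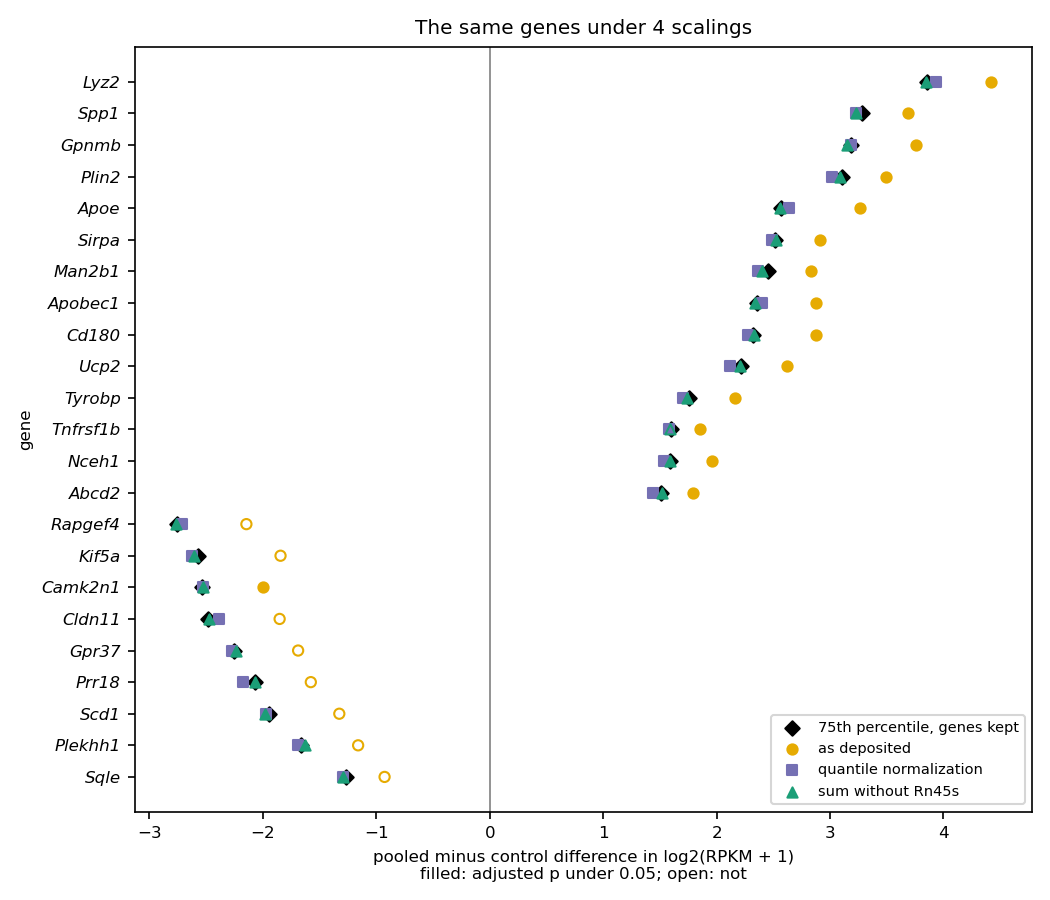
Pooled minus control difference in log2(RPKM + 1) (horizontal axis) for 23 of the 24 genes (vertical axis) under 4 scalings, with filled symbols for an adjusted p under 0.05 and open symbols for others. The deposited values (yellow circles) lie to the right of the others for every gene drawn, and with them 8 of the 9 falls are open.

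The rises included proteins of the phagocyte surface and its lysosomes. Values for a group are given as its lowest, median and highest library, in scaled RPKM, and differences on the scale of log2(scaled RPKM + 1), which understates the change of low genes. Lyz2, the lysozyme of macrophages and other myeloid cells, was at 0.472, 4.87 and 78.6 in controls, 28.02, 72.5 and 1335 at Day 5 and 6.66, 44.97 and 214 at Day 15. It rose by 3.85 (SE 0.7, limma adjusted p = 0.00408), 15 of 15 injured libraries lay above the control median, and the highest control, replicate 3, reached into the injured range. Lyz2 has a near-identical neighbour, Lyz1, and reads may have been split between them. Gpnmb, a membrane glycoprotein of lysosomes and phagosomes, was at 0.362, 4.23 and 91.97 in controls, 43.5, 109 and 164 at Day 5 and 8.04, 24.5 and 159.6 at Day 15, a difference of 3.18 (SE 0.65, adjusted p = 0.00788). Only 6 injured libraries exceeded the highest control, so these groups overlapped widely while their medians stood far apart. Man2b1, the lysosomal enzyme that trims mannose from glycoproteins, was at 0.0144, 0.539 and 1.86 in controls, 0.358, 6.47 and 88.02 at Day 5 and 0.69, 7.61 and 28.3 at Day 15, a difference of 2.45 (SE 0.54, adjusted p = 0.0173). For Man2b1 11 of the 15 injured libraries were above every control, which is no separate support for a gene so low in controls.

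Among surface receptors, Sirpa, an inhibitory receptor through which the surface protein CD47 restrains phagocytosis, was at 0.0678, 0.587 and 2.34 in controls, 0.721, 5.01 and 199.7 at Day 5 and 6.34, 12.4 and 18.8 at Day 15. The difference was 2.52 (SE 0.52, adjusted p = 0.00788); 14 of 15 injured libraries exceeded the highest control, and Day 5 replicate 3 was far above the rest. Tyrobp, the adaptor that signals for Trem2 and other myeloid receptors, had medians of 1.09, 4.7 and 4.05 in the same order, a difference of 1.76 (SE 0.44, adjusted p = 0.0445). Cd180, a relative of the Toll-like receptors, had medians of 1.71, 16.00 and 12.6, a difference of 2.32 (SE 0.57, adjusted p = 0.044), and its highest control, at 31.5, exceeded most injured libraries: 4 of 15 lay above it. Tnfrsf1b, the second receptor for tumour necrosis factor, was at medians of 0.103, 2.57 and 2.86, a difference of 1.6 (SE 0.4, adjusted p = 0.0471).

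Spp1, which encodes osteopontin, a secreted matrix protein made by macrophages and activated microglia, was at 0.101, 0.6 and 8.88 in controls, 3.32, 37.6 and 999 at Day 5 and 1.51, 4.76 and 89.96 at Day 15. It rose by 3.28 (SE 0.7, limma adjusted p = 0.0129); 8 of 15 injured libraries lay above the highest control, and Day 15 replicate 5 stood above the other Day 15 libraries. Apobec1, the enzyme that edits the apolipoprotein B transcript, had medians of 0.801, 6.6 and 8.26, a difference of 2.36 (SE 0.58, adjusted p = 0.0448), and 14 of 15 injured libraries were above the control median. Ucp2, a carrier of the inner mitochondrial membrane, was at 0.116, 0.969 and 11.1 in controls, 1.07, 4.06 and 12.96 at Day 5 and 2.66, 11.7 and 157 at Day 15, a difference of 2.22 (SE 0.56, adjusted p = 0.0471). Its Day 15 median was the higher of the 2 days, and 5 injured libraries exceeded the highest control, replicate 5.

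A further group of rises handles stored and exported lipid. Plin2, which coats lipid droplets, was at 0.00158, 0.183 and 1.76 in controls, 2.45, 14.8 and 65.4 at Day 5 and 0.0266, 24.3 and 128 at Day 15. All Day 5 libraries lay above every control, whereas at Day 15 the libraries fell into a high set and 3 that reached no higher than the controls. The difference was 3.11 (SE 0.63, adjusted p = 0.00788), with 12 of 15 above the highest control. Apoe, the main carrier of cholesterol between brain cells, was at 2.13, 4.35 and 30.04 in controls, 21.8, 44.6 and 153 at Day 5 and 9.29, 20.5 and 119 at Day 15, a difference of 2.57 (SE 0.53, adjusted p = 0.00788). All 15 injured libraries were above the control median of Apoe and 10 above its highest control. Nceh1, which splits stored cholesterol esters, was at 0, 0.287 and 0.885 in controls and 0.0274, 3.79 and 8.8 in injured libraries, a difference of 1.59 (SE 0.37, adjusted p = 0.0299). Abcd2, which carries very long-chain fatty acids into peroxisomes, was at 0, 0.104 and 0.564 in controls and 0.533, 2.1 and 26.7 in injured libraries, a difference of 1.51 (SE 0.37, adjusted p = 0.044). For Nceh1 and Abcd2 alike 14 of 15 injured libraries exceeded the highest control, although the levels were low. A scaled RPKM of 1 was reached by 0 controls for either gene, against 14 injured libraries for Nceh1 and 11 for Abcd2. Tnfrsf1b likewise had 0 controls and 11 injured libraries at that level. Genes this low in controls enter the test mainly through the injured libraries, so these counts are no separate support. The same limit holds for the counts of Man2b1, Sirpa, Spp1 and Plin2 above the highest control. In that order, 1, 4, 3 and 3 controls and 13, 14, 15 and 12 injured libraries reached a scaled RPKM of 1.

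**Figure D3:**
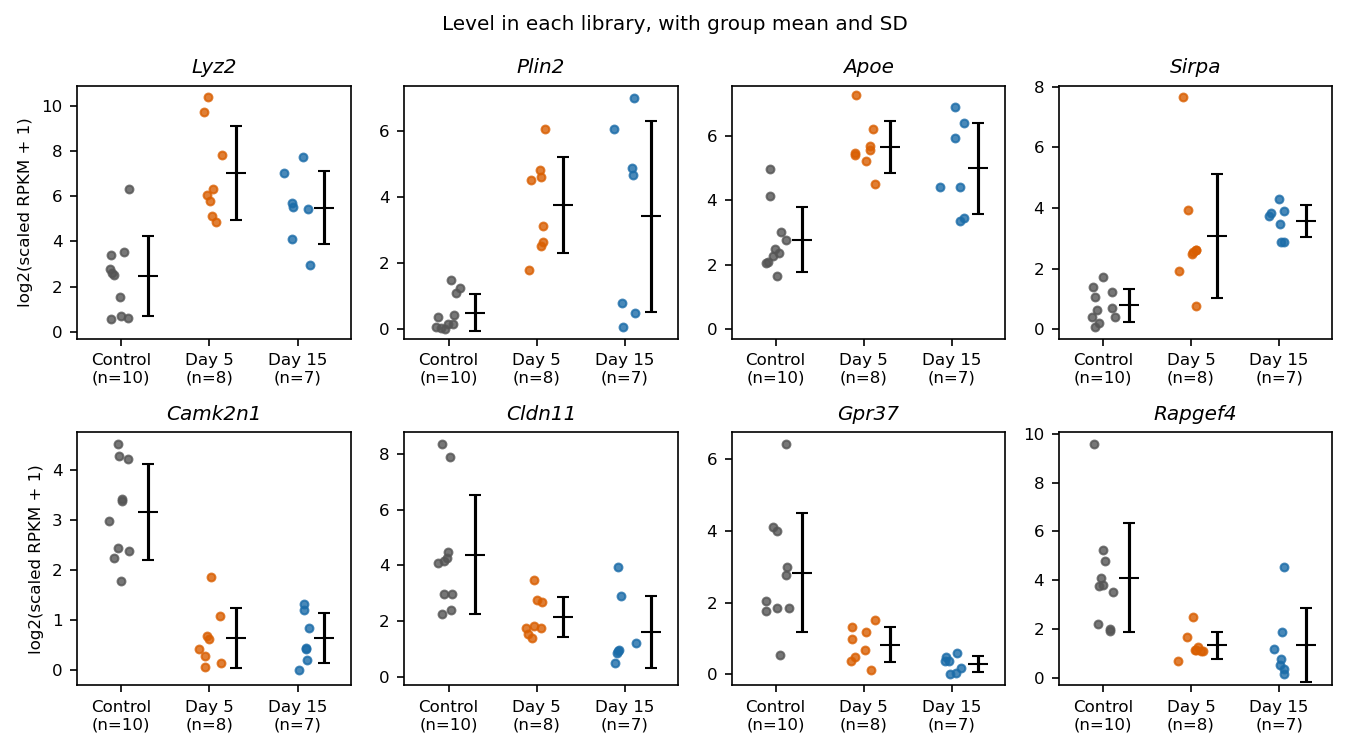
Level in each library (points, log2(scaled RPKM + 1) on the vertical axis) of 4 risen genes (Lyz2, Plin2, Apoe, Sirpa) and 4 fallen genes (Camk2n1, Cldn11, Gpr37, Rapgef4) in control, Day 5 and Day 15 libraries, with the group mean and SD beside the points. Camk2n1 shows the least overlap, with 14 of 15 injured libraries under the lowest control; the 3 low Day 15 libraries of Plin2 and the high control of Lyz2 and of Rapgef4 can be seen.

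Sums of phagocyte markers were higher in injured libraries, but they hold genes called above and are not a separate observation. Summed over 23 microglial markers, among them Tyrobp, scaled RPKM was 38.6, 64.4 and 161 in controls, 93.2, 193 and 328 at Day 5, and 107, 320 and 987 at Day 15. Summed over 29 markers of macrophages and other leukocytes, among them Lyz2, Gpnmb and Spp1, it was 12.2, 40.2 and 232 in controls, 305, 443 and 1614 at Day 5, and 80.9, 172 and 603 at Day 15. At Day 5 the mean scaled RPKM of Lyz2, Spp1 and Gpnmb was 332, 161 and 103, so these genes make up much of that sum. Of the 29 macrophage and leukocyte markers, 7 had a median of at least 1 in controls, 16 at Day 5 and 10 at Day 15. Of the 23 microglial markers the numbers were 12, 14 and 21. None of the markers in either list was at 0 in all libraries of a group. The part of phagocyte material in the rises was not tested. Aif1 and Cx3cr1, which are defining genes of microglia, differed by 0.22 and 0.51 with limma adjusted p of 0.759 and 0.703. By day, Cx3cr1 differed by -0.05 at Day 5 and 1.15 at Day 15 (limma adjusted p = 0.987 and 0.427). All 21 microglial markers tested had a pooled difference above 0 (all genes 56.0%). Of these, 11 had an unadjusted p under 0.05.

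The promoters of the lipid and phagocyte genes are given to show the letters bound by 2 kinds of regulator in such cells: GAGGAA (read as TTCCTC on the opposite strand), the core read by the myeloid factor PU.1, and CACGTG, the core read by TFEB and TFE3, regulators of lysosomal genes. The windows run from 250 bases before to 50 after the start of the gene, from RefSeq on GRCm38.p6, which is a later build than that of the expression files. Of the 24 genes 16 matched, with 21 promoters, and promoters of 1 gene can overlap. GAGGAA on either strand was found in 6 of 15 promoters of the rises (40.0%), 1 of 6 of the falls (16.7%) and 9289 of 32851 promoters in all (28.3%). CACGTG, which reads the same on both strands, was found in 2 of 15 (13.3%), 0 of 6 and 2349 of 32851 (7.15%), so in both cases the members' counts are small. The promoters printed are those of Nceh1 (chr3:27182754-27183053 on the plus strand), Spp1 (1 of 2 in the table, chr5:104434861-104435160 on the plus strand) and Plin2 (chr4:86670010-86670309 on the minus strand), with capitals for GAGGAA or TTCCTC in the first 2 and for CACGTG in the last. In Nceh1 the letters of CACGTG follow directly on the second capital stretch and are in lower case. Among promoters not printed, those of Gpnmb, Lyz2, Cd180, Apobec1 and Ucp2 and the other one of Spp1 hold neither run. That of the lysosomal gene Man2b1 holds GAGGAA but not CACGTG. A match is a run of letters and not a measured binding site.
Nceh1: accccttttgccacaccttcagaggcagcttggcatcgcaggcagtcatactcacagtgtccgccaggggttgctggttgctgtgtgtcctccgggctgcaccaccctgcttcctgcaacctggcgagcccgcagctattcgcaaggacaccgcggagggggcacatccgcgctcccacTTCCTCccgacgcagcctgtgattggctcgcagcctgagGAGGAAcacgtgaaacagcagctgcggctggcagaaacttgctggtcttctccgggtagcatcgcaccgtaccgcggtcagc
Spp1: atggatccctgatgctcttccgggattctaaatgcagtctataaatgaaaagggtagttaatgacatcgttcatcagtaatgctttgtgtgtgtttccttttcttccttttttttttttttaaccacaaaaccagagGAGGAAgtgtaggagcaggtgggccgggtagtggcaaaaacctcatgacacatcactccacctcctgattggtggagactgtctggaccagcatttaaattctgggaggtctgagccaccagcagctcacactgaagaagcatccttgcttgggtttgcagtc
Plin2: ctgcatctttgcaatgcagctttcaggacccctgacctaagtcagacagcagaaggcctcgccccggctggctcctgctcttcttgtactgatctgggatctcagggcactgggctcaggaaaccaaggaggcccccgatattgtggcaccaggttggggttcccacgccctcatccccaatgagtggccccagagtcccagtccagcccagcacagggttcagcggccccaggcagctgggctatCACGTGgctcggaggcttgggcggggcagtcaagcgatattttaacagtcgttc

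The falls held genes of oligodendrocytes and of lipid synthesis. Cldn11, the claudin that forms the tight junctions of myelin, was at 3.75, 16.3 and 328 in controls, 1.6, 2.45 and 10.03 at Day 5 and 0.401, 0.933 and 14.3 at Day 15. It fell by 2.49 (SE 0.6, limma adjusted p = 0.0413), and 10 of 15 injured libraries lay below the lowest control. Gpr37, an orphan receptor that oligodendrocytes express, was at 0.451, 4.46 and 84.6 in controls, 0.079, 0.797 and 1.83 at Day 5 and 0.00139, 0.29 and 0.497 at Day 15, a difference of -2.26 (SE 0.46, adjusted p = 0.00788); all 15 injured libraries were below the control median. Prr18 was at 0.236, 6.73 and 16.6 in controls and 0, 0.426 and 3.21 in injured libraries, a difference of -2.07 (SE 0.42, adjusted p = 0.00788). Plekhh1 was at 0.675, 3.25 and 20.1 in controls and 0.00237, 0.764 and 2.2 in injured libraries, a difference of -1.66 (SE 0.4, adjusted p = 0.0411). For each of these genes the injured median was the lower one, and the groups overlapped. Summed over 33 myelin and oligodendrocyte markers, among them Cldn11, scaled RPKM was 382, 1046 and 2027 in controls. The sum was 197, 363 and 731 at Day 5, and 159.7, 415 and 642 at Day 15. It holds a gene called above and is not a separate observation. The part of less oligodendrocyte material in the falls was not tested.

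Scd1, the desaturase that makes oleic acid, a main fatty acid of myelin, was at 3.43, 6.32 and 38.9 in controls, 0.00299, 0.785 and 2.57 at Day 5 and 0.0531, 2.1 and 9.26 at Day 15. The difference was -1.95 (SE 0.49, adjusted p = 0.047); every Day 5 library was below the lowest control, while some Day 15 libraries reached the control median. Sqle, the squalene epoxidase of cholesterol synthesis, was at 0.167, 1.69 and 11.7 in controls, 0.1, 0.201 and 1.47 at Day 5 and 0.00156, 0.125 and 0.441 at Day 15, a difference of -1.27 (SE 0.31, adjusted p = 0.044). Sqle was low in all groups, and its injured values were mostly under an RPKM of 1.

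The remaining falls are genes of signalling and axonal transport that neurons express. Camk2n1, an inhibitor of the calcium-dependent kinase CaMKII, was at 2.45, 8.22 and 22.1 in controls, 0.0361, 0.44 and 2.63 at Day 5 and 0.00253, 0.363 and 1.49 at Day 15. It fell by 2.54 (SE 0.4, limma adjusted p = 0.000427), the smallest adjusted p of the comparison; 14 of 15 injured libraries were below the lowest control and 9 of 10 controls above the highest injured library. Rapgef4, which activates the small GTPase Rap in response to cyclic AMP, was at 2.78, 12.8 and 757 in controls, 0.596, 1.21 and 4.64 at Day 5 and 0.124, 0.702 and 22.4 at Day 15, a difference of -2.76 (SE 0.61, adjusted p = 0.0176). Of the injured libraries 13 were below the lowest control, Day 15 replicate 2 was the highest of them, and Control replicate 7 stood far above the other controls. Kif5a, a kinesin motor of axonal transport, was at 13.3, 76.1 and 199 in controls, 0.211, 5.53 and 31.7 at Day 5 and 4.12, 18.9 and 104 at Day 15, a difference of -2.57 (SE 0.61, adjusted p = 0.0374); 10 of 15 injured libraries were below the lowest control. Summed over 23 neuronal markers, among them Camk2n1, scaled RPKM was 18.5, 33.0 and 110 in controls. The sum was 3.96, 5.24 and 34.5 at Day 5, and 4.01, 10.4 and 95.9 at Day 15. It holds a gene called above and is not a separate observation. The part of neuronal material in these falls was not tested.

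Each day was then set against the same 10 controls, so the values of the days share them. Day 5 alone gave 18 higher (0.417%) and 4 lower genes (0.0926%), and Day 15 alone 7 higher (0.162%) and 2 lower (0.0463%). Of the 24 shared changes 13 passed at Day 5, 5 at Day 15, and Camk2n1 at both. The 7 that passed at neither day alone passed only with the days pooled. The difference from control was larger at Day 5 for 12 of the 15 rises, and larger at Day 15 for 3, among them Sirpa and Ucp2. Among the falls, 3 were larger at Day 5 (Rapgef4, Kif5a and Scd1) and 6 at Day 15.

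Side by side, Lyz2 differed from control by 4.56 (SE 0.79) at Day 5 and by 3.04 (SE 0.82) at Day 15. Spp1 differed by 4.51 (SE 0.73) and 1.87 (SE 0.76), Gpnmb by 3.93 (SE 0.73) and 2.33 (SE 0.76). Ucp2 went the other way, with 1.49 (SE 0.62) at Day 5 and 3.04 (SE 0.64) at Day 15. Values nearly equal on both days were seen for Camk2n1 (-2.53 and -2.54), Rapgef4 (-2.77 and -2.75), Prr18 (-2.04 and -2.11) and Tyrobp (1.78 and 1.75). In the test of Day 15 against Day 5, whose difference uses no control library but whose error comes from the spread in all 3 groups, 0 of 4319 genes passed with limma, and 316 (7.32%) had an unadjusted p under 0.05. Of the 24 shared changes, Spp1 (-2.64, SE 0.8, unadjusted p = 0.00191), Gpnmb (-1.61, SE 0.79, unadjusted p = 0.0495) and Ucp2 (1.55, SE 0.67, unadjusted p = 0.0263) were among these, and the lowest adjusted p was 0.561. Missing the threshold does not show that the days are alike.

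**Figure D4:**
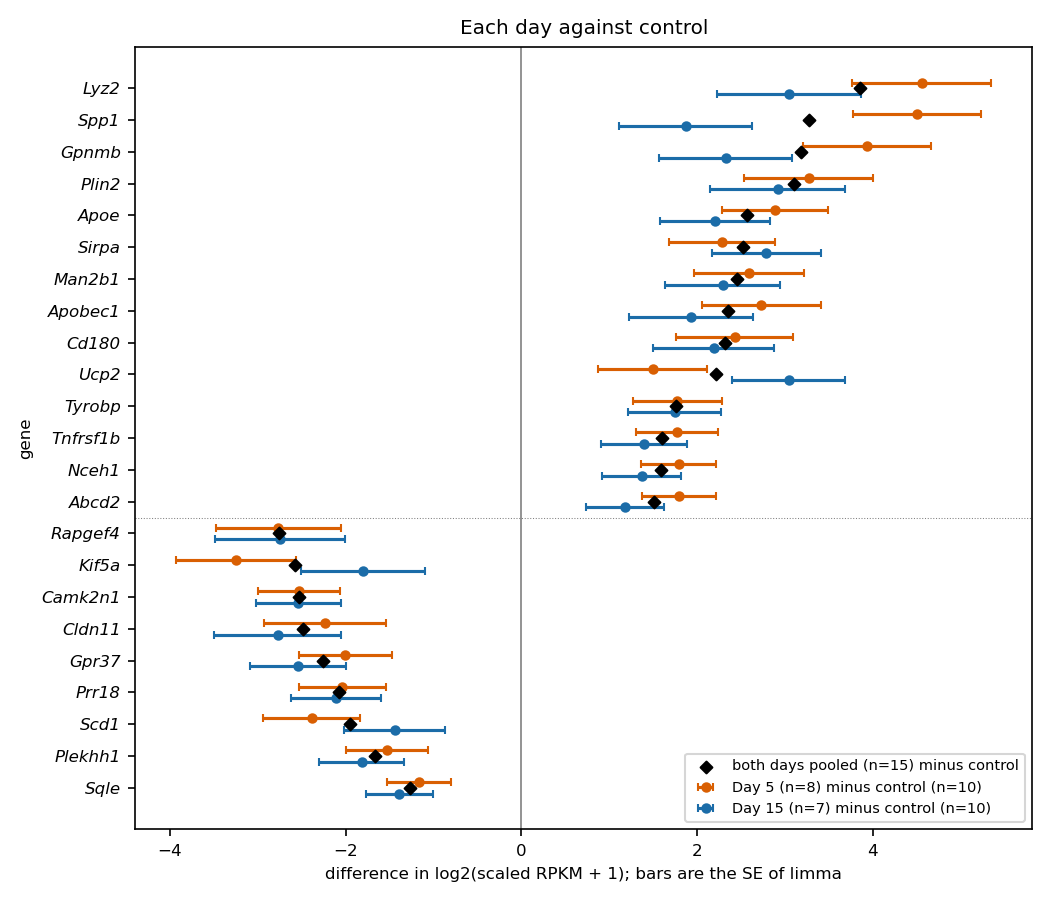
Difference from control in log2(scaled RPKM + 1) (horizontal axis) of 23 of the 24 genes (vertical axis) at Day 5 (orange, n = 8), at Day 15 (blue, n = 7) and pooled (black diamonds, n = 15), each against the same 10 controls, with bars for the SE of limma. All points of the rises lie right of 0 and all points of the falls left of it; the days lie farthest apart for Spp1, Gpnmb, Ucp2, Lyz2 and Kif5a.

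Lists of related genes are described by how many of their tested members passed, beside all genes tested. The lists were chosen with earlier results of these data known, so their shares are description and test nothing. Of 26 myelin and mature oligodendrocyte genes, Cldn11 fell and none rose; 13 had an unadjusted p under 0.05 on the lower side (all genes 5.12%) and the median difference was -0.87, against 0.07 for all genes. Mbp was at 43.3, 334 and 1317 in controls, 14.2, 43.6 and 137 at Day 5 and 20.6, 51.6 and 303 at Day 15, and did not pass (-2.06, SE 0.59, adjusted p = 0.0852). Mobp, another myelin protein, had -2.02 (adjusted p = 0.138). Among 15 genes of fatty acid and myelin lipid synthesis, Scd1 fell, 6 had an unadjusted p under 0.05 on the lower side, and the median was -0.66. Of 4 tested genes of cholesterol synthesis, Sqle fell and the median was -0.50. Of 6 neuronal genes Camk2n1 fell and the median was -0.67; the synaptic gene Snap25 had -1.13 (adjusted p = 0.339).

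On the rising side, 36 lysosomal and phagocytic genes had a median of 1.16; Man2b1 and Gpnmb rose, none fell, and 20 had an unadjusted p under 0.05 on the higher side (all genes 7.90%). Of 13 genes of lipid efflux and storage, Apoe, Plin2 and Nceh1 rose, and 7 passed unadjusted, with a median of 0.77. The 21 microglial genes had a median of 0.96, with Tyrobp risen and 11 unadjusted, and the 18 of macrophages and leukocytes 1.16, with Lyz2, Gpnmb and Spp1 risen and 12 unadjusted. Tnfrsf1b was the risen member of 16 genes for chemokines, cytokines and their receptors, Cd180 that of 10 for Toll-like receptors, and Tyrobp that of 14 for Fc receptor and Tyrobp signalling. Ucp2 was the risen member of 14 genes for hypoxia and oxidative stress and Spp1 that of 16 for extracellular matrix and scar. Several genes stand in more than 1 list, so the lists are not separate observations.

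None of 14 complement genes passed, although 8 had an unadjusted p under 0.05 on the higher side and the median was 1.08. C3ar1, the receptor for the C3a fragment, had 2.19 (SE 0.64, adjusted p = 0.0897) and C5ar1, that for C5a, 1.45 (SE 0.43, adjusted p = 0.0897). C3, the central complement component, had 1.2 (adjusted p = 0.246) with the days pooled, 0.26 at Day 5 (adjusted p = 0.887) and 2.28 at Day 15 (adjusted p = 0.0429). Irf8, a transcription factor of myeloid cells, had 1.46 (adjusted p = 0.0815), and Plxnc1, a semaphorin receptor, 1.36 (adjusted p = 0.0852). With the values as deposited, C3ar1 passed at 2.6 (limma adjusted p = 0.04). In that setting the median of all genes was 0.43, with 36 genes higher and 1 lower, so the pass depended on the scaling.

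The 13 tested OPC markers had a median of 0.16 and none passed. Pdgfra differed by 0.39 (adjusted p = 0.744), Cspg4 by 0.36 (adjusted p = 0.764) and Sox10 by -0.27 (adjusted p = 0.874); Sox10 was 0.2 with the deposited values, so its sign depended on the scaling. Summed over 22 OPC markers, scaled RPKM was 27.4, 45.8 and 184 in controls, 26.1, 42.4 and 62.3 at Day 5, and 27.0, 37.5 and 205 at Day 15, which overlapped throughout. Of 12 astrocyte genes none passed and the median was -0.05; Gfap, the intermediate filament of reactive astrocytes, differed by 0.53 (adjusted p = 0.783) and the water channel Aqp4 by 1.0 (adjusted p = 0.393). Olig2, a transcription factor of the oligodendrocyte lineage, was not tested, since too few libraries reached an RPKM of 1; it was at 0.13, 0.946 and 3.72 in controls and 0.0615, 0.205 and 0.98 in injured libraries, where 14 of 15 lay below the control median. Cldn5, a marker of endothelium, was not tested either. At an unadjusted p under 0.05 on the lower side, 1 of the OPC markers and 0 of the astrocyte genes were found.

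In the other lists no gene passed with the days pooled. At Day 15 alone the ion channel gene Kcnj2 passed (2.39, limma adjusted p = 0.0475), as did Col3a1 of the fibroblast list (1.44, adjusted p = 0.0485). At Day 5 they had 0.42 and 0.39 (adjusted p = 0.817 and 0.679). C3, given above, is also a member of the reactive astrocyte list. Of 10 genes of antigen presentation 4 had an unadjusted p under 0.05 on the higher side (median 0.47), of 19 genes of actin and phagocyte motility 3 (median 0.52), of 11 of reactive astrocytes 1 (median 0.51) and of 17 cytosolic ribosomal proteins 3 (median 0.35). The 15 interferon response genes had a median of -0.10 and the 7 of the cell cycle 0.18, with 1 and 0 unadjusted. Of 13 genes of the respiratory chain 2 were lower unadjusted (median -0.16). Both sides were seen among 17 genes of axon guidance and growth inhibition (2 and 2, median -0.39), 14 ion channels and neurotransmitter receptors (2 higher and 1 lower, median -0.17) and 8 genes of TGF-beta, BMP, Notch and Wnt signalling (2 higher and 1 lower, median 0.33). The 7 endothelial genes had a median of -0.20, with 0 unadjusted. Of 4 pericyte, smooth muscle and fibroblast genes 1 was higher unadjusted (median 0.18), and the single red blood cell gene tested, Bpgm, was lower unadjusted, at -0.95. These shares compare with 7.90% higher and 5.12% lower over all genes.

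**Figure D5:**
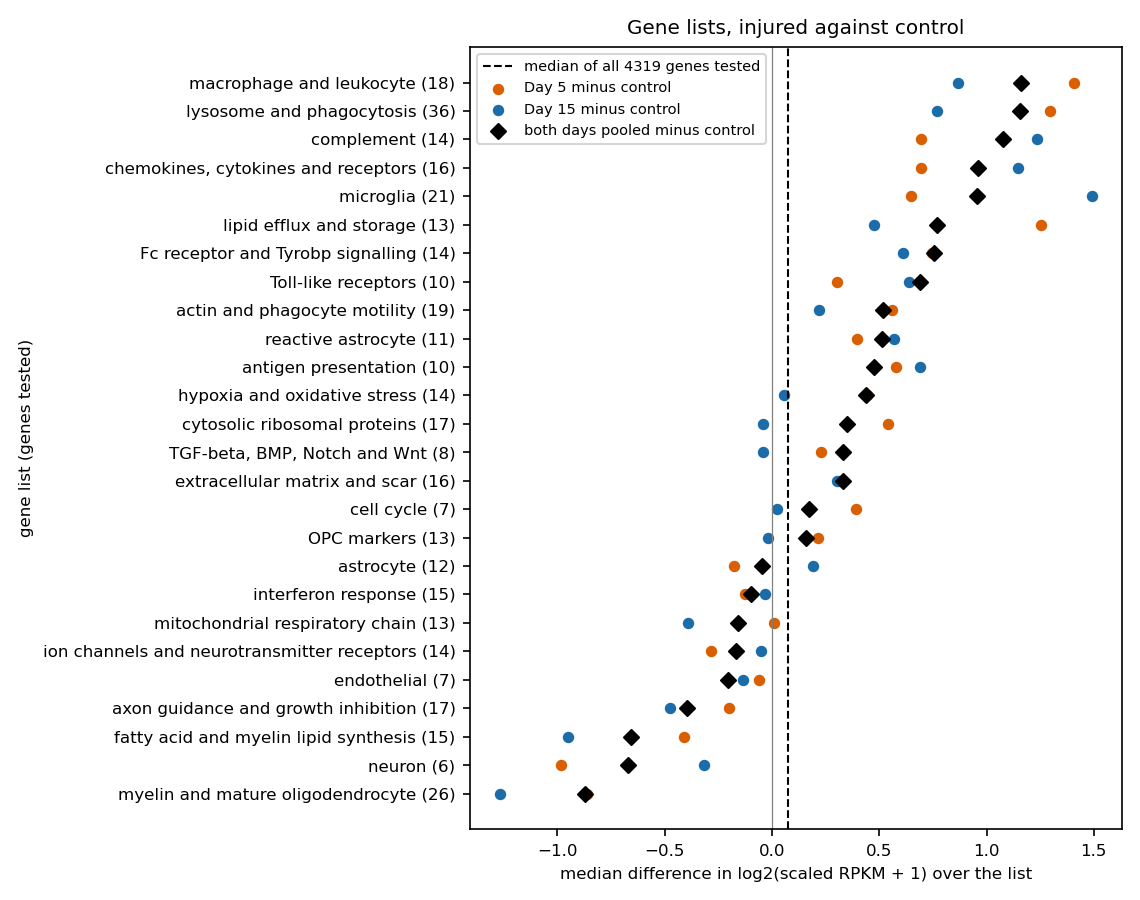
Median difference from control in log2(scaled RPKM + 1) (horizontal axis) over the tested genes of each list (vertical axis, number tested in parentheses; lists with under 6 tested genes are not drawn), for Day 5 (orange), Day 15 (blue) and both days pooled (black). The dashed line is the pooled median of all 4319 genes tested, at 0.07; of the pooled medians, those of the macrophage and lysosome lists lie farthest right at 1.16 and that of the myelin list farthest left at -0.87.

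The pattern of the 24 genes was read in each library. At Day 5, between 14 and 15 of the 15 risen genes lay above the control median and all 9 fallen genes below it in every library. At Day 15 the counts were 12 to 15 and 8 to 9. In control libraries 3 to 11 of the risen genes lay above the same median. Between 6 and 13 of the risen genes exceeded every control in an injured library. Of 4319 genes 0 separated the injured from the control libraries without overlap (0%). Since the genes were picked by this comparison, the counts describe the libraries and test nothing.

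Libraries were left out 1 at a time. Apoe, Camk2n1, Gpnmb, Gpr37, Lyz2, Man2b1, Plin2, Prr18, Rapgef4, Sirpa and Spp1 passed in all 25 of these fits. The other 13 genes, whose adjusted p lay nearer the threshold, lost the call in at least 1. Nceh1 lost its call without any one of 6 libraries, Control replicates 2, 4, 7, 9 and 10 and Day 5 replicate 9 (adjusted p 0.0512 to 0.0636), with differences from 1.5 to 1.73 over all 25 fits. Kif5a lost its call without any one of 11 libraries, Control replicates 1, 5, 7, 8, 9 and 10, Day 5 replicates 7, 8, 9 and 10 and Day 15 replicate 7 (adjusted p 0.0512 to 0.0755), with differences from -2.82 to -2.36 over all 25 fits. Plekhh1 lost its call without any one of 12 libraries, Control replicates 2, 4, 6, 7 and 10, Day 5 replicates 4, 7, 9 and 10 and Day 15 replicates 2, 7 and 8 (adjusted p 0.0508 to 0.0821), with differences from -1.85 to -1.45 over all 25 fits. Apobec1 lost it in 19 fits and kept it only when the library left out was one of Control replicates 3, 5 and 6, Day 5 replicate 3 and Day 15 replicates 6 and 8 (lost at adjusted p 0.0508 to 0.0973); its difference ran from 2.07 to 2.59. Cd180 lost it in 17 fits and kept it only when the library left out was one of Control replicates 1, 3 and 4, Day 5 replicates 1 and 6 and Day 15 replicates 2, 3 and 8 (lost at adjusted p 0.0508 to 0.0973); its difference ran from 2.15 to 2.67. Ucp2 lost it in 20 fits and kept it only when the library left out was one of Control replicate 5, Day 5 replicates 1, 3 and 6 and Day 15 replicate 9 (lost at adjusted p 0.0546 to 0.0973); its difference ran from 1.93 to 2.5. Tyrobp lost it in 18 fits and kept it only when the library left out was one of Control replicate 5, Day 5 replicates 3 and 6 and Day 15 replicates 3, 5, 6 and 8 (lost at adjusted p 0.0508 to 0.0973); its difference ran from 1.63 to 1.92. Tnfrsf1b lost it in 21 fits and kept it only when the library left out was one of Day 5 replicate 6 and Day 15 replicates 3, 6 and 9 (lost at adjusted p 0.0587 to 0.0973); its difference ran from 1.47 to 1.73. Abcd2 lost it in 16 fits and kept it only when the library left out was one of Control replicate 5, Day 5 replicates 6, 7, 8 and 9 and Day 15 replicates 2, 3, 6 and 8 (lost at adjusted p 0.0527 to 0.0755); its difference ran from 1.29 to 1.59. Cldn11 lost it in 14 fits and kept it only when the library left out was one of Control replicates 1, 3, 7 and 8, Day 5 replicates 1, 3, 6 and 7 and Day 15 replicates 3, 8 and 9 (lost at adjusted p 0.0508 to 0.0972); its difference ran from -2.72 to -2.04. Scd1 lost it in 20 fits and kept it only when the library left out was one of Control replicates 4 and 5 and Day 15 replicates 3, 6 and 9 (lost at adjusted p 0.0508 to 0.107); its difference ran from -2.09 to -1.72. Sqle lost it in 18 fits and kept it only when the library left out was one of Control replicates 1, 5, 8 and 9 and Day 5 replicates 1, 4 and 6 (lost at adjusted p 0.0511 to 0.0739); its difference ran from -1.42 to -1.04.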

How the data were processed

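The submitters' processing notes name the mm9 build and the tools STAR 2.1.4a, HTSeq and CASAVA 1.8.3; the labels' protocols give amplified cDNA from laser capture and 100 bp paired reads. The authors deposited 1 table of RPKM for 23351 genes. The formula behind RPKM is unstated. Of these genes 741 were at 0 throughout, and 25 had symbols turned into dates.

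Kept were the 4319 genes that reached an RPKM of 1 in 7 or more of 25 libraries. The filter used values before scaling, whose sum was higher in injured libraries, and 15 injured stood beside 10 control libraries. Low genes that rise could thus enter more readily than low genes that fall, which bears on the counts of each direction. Each column was scaled by its 75th percentile over these genes, relative to the geometric mean of the columns, and log2(value + 1) was tested with limma 3.58.1 (R 4.3.3; lmFit, eBayes with trend and robust, two-sided), as injured against control and as 1 fit of 3 groups. Benjamini-Hochberg adjustment ran over all genes kept. The script was tested on simulated data. Library properties were compared by permutation with 100000 resamples (Python 3.11.15, numpy 2.4.6).

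Genes named are the shared changes, at most 15 in each direction, with a mean scaled RPKM of at least 2 in injured or control libraries, a panel of 15 marker genes, and at most 3 called or 2 uncalled members of each of 29 gene lists; text and figures show those that bear on a result. Other scalings, pseudocounts, filters, weights, covariates and left-out libraries were tried, with their effect given at the end. Depth is unknown, so no counting error could be given. Of the 24 shared changes, 1 is counted but not reported here. Members and lists were chosen with earlier results of these data known. Replicate numbers were not treated as pairs, since the labels do not say that they pair the libraries.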

Additional observations from a re-analysis of the deposited data

Results flagged for a closer look

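In groups of 7 to 10 libraries, a library was picked out where its gap to the nearest other one, as a share of the group's range on the log2 scale, exceeded Dixon's critical value. Of 231 groups tested 27 were picked out, all at the high end. The critical value is passed by chance in about 1 in 20 groups only where values are normally distributed. RPKM cannot be negative and many values were low, so gaps at the high end may be more frequent here. The count of 27 therefore describes the libraries and does not show an excess over chance. Values are scaled RPKM.

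Among the genes that changed, Lyz2 was 78.6 in Control replicate 3, Ucp2 was 11.1 in Control replicate 5, and Rapgef4 was 757 in Control replicate 7 and 22.4 in Day 15 replicate 2. Spp1 was 89.96 in Day 15 replicate 5, Sirpa 199.7 in Day 5 replicate 3 and Prr18 3.21 in Day 15 replicate 8. Rapgef4, Lyz2, Spp1, Sirpa and Prr18 passed without each of these libraries, and Ucp2 passed as well without Control replicate 5.

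Among markers of oligodendrocyte lineage cells, Cspg4 was 12.05 in Control replicate 8, Sox10 55.8 in Control replicate 2, Mobp 934 in Control replicate 7, Olig2 0.98 in Day 15 replicate 7 and Sox8 2.08 in Day 15 replicate 2. The mean log2 level of the OPC markers was 1.59 in Control replicate 6, and that of the red blood cell markers 0.728 in Control replicate 9. The latter came almost wholly from 1 gene, Bpgm, which was 45.8 there, while all 8 markers summed to 45.99.

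Among immune and vascular genes, Cx3cr1 was 7.45 in Day 5 replicate 3, C3 was 4.37 in Control replicate 3, and C5ar1 was 0.586 in Control replicate 5 and 49.2 in Day 15 replicate 3. Cldn5 was 0.173 in Control replicate 4, 0.487 in Day 5 replicate 4 and 0.0654 in Day 15 replicate 5, all low levels. Flt1 was 13.1 in Control replicate 3 and the glucose transporter gene Slc2a1 29.9 in Day 5 replicate 8. Kcnj2 was 118 in Day 15 replicate 9, and Nrp1 and the proliferation gene Mki67 were 112 and 162 in Day 15 replicate 6.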

How the results depend on the processing

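The counts reported were 15 higher, 9 lower and 24 shared by both days. Deposited values gave 36 higher and 1 lower, and quantile normalization 15 lower. In the order higher, lower and shared, the counts were 2, 2 and 4 with a 75th percentile over all genes above 0, 91, 33 and 109 with a pseudocount of 0.1, 0, 1 and 1 with no filter (1158 genes at an unadjusted p under 0.05) and 26, 18 and 42 at a mean RPKM of at least 5. They were 36, 22 and 51 with library weights, 28, 18 and 45 with no trend and no robust step, and 2, 2 and 4 with detected genes as a covariate (486 unadjusted). Replicate numbers 1 to 6 alone gave 0, 0 and 0 (334 unadjusted), and numbers 7 to 10 gave 2, 1 and 3 (525 unadjusted). With this range of numbers as a covariate the counts were 18, 12 and 30. Between 9588 and 14142 genes had an RPKM above 0 in Control replicates 1 to 6, against 16013 to 17407 in Control replicates 7 to 10. For the same 2 ranges of numbers, the counts overlapped at Day 5 (9210 to 19097 and 17774 to 20190). They also overlapped at Day 15 (8255 to 19131 and 12120 to 16755). The labels give no reason for the difference in controls, and its cause was not tested. Leaving out Control replicate 5 and Day 5 replicate 10, which were led by Rn45s, gave 13, 8 and 21. Of the 24 calls 16 were kept there, 11 rises and 5 falls. Libraries with at least 1500 genes gave 12, 8 and 20, and equal weight for each day 14, 9 and 23. Leaving out Day 5 replicate 4 and Day 15 replicate 5, the most alike libraries (correlation 0.13), an alternative chosen after seeing the data, gave 8 higher and 13 shared. With single libraries left out, counts ranged from 7 to 18 higher, 4 to 11 lower and 11 to 28 shared. Fewer than 16 were shared without any one of Control replicates 2, 4, 6, 7, 9 and 10, Day 5 replicates 4, 7, 9 and 10 and Day 15 replicates 5 and 7, fewer than 10 were higher without any one of Control replicates 2, 4, 6, 7, 8, 9 and 10, Day 5 replicates 4, 9 and 10 and Day 15 replicate 7, and fewer than 6 were lower without any one of Control replicates 6, 7 and 10, Day 5 replicates 7, 9 and 10 and Day 15 replicate 7. Each of the 24 genes kept its sign in every fit that tested it, and 15 of them were tested at a mean RPKM of at least 5; the causes were not tested.

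The replicate block gave 10, 6 and 16, and 14 of the 24 calls were kept. Over 20 same-numbered pairs the correlation of deviations was -0.04 to 0.09, none over 0.1, and in 4 pairs the same number was the best match. The highest correlation between any libraries was 0.13, so this check could hardly show pairs and does not exclude them. The numbers were not treated as pairs. Depth is unknown, which limits what low values show.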
